A study of Astyanax mexicanus with 6 samples.

Results

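In livers of the Mexican tetra, Astyanax mexicanus, 45 of 27420 annotated genes formed a clean staircase from river fish to both cave populations, with one cave in between and the other at the far end. Of these, 18 were higher and 27 lower in both caves than in Surface. The 6 libraries, 2 of each population, came from Pachon cave fish, Tinaja cave fish and Surface fish. The labels give no strain, treatment, time, sex, age or feeding state, and do not say if each library is from its own fish. PolyA RNA from liver tissue was sequenced with strand-specific libraries, and the table holds read counts per gene.

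Members were chosen from these counts, scaled to library size (CPM) with TMM factors, which assume that most genes do not change, with 0.5 added to each value. Populations were ranked by their mean, and Surface had to be highest or lowest. At each of the 2 steps, the lowest library of the higher population had to be at least 2 times the highest library of the lower one, a ratio called the gap here. The highest population also needed a mean of at least 2. Since this rule used every library and every contrast, the values below describe the members, and no test of them is read as support.

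Surface fish of this species live in rivers and have eyes and pigment, while cave fish are eyeless, pale and known for large fat stores and resistance to starvation. The liver makes the plasma proteins of the blood, stores and releases sugar and fat, and makes bile. A graded gene is one in which both caves lie on the same side of Surface at clearly unequal distances. The table lists Ensembl identifiers without gene names, and 0 of the 27420 could be paired with a symbol. The roles of the members are therefore not given, and liver markers or markers of other cell types could not be checked. Genes other than the first of each order are called by their order, given from the lowest population to the highest, and by the rank of their smaller gap. In whole liver, fewer cells of a type and less RNA per cell cannot be told apart.

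Library totals were 22168622 to 29521610 counts. TMM multiplied them by 1.206 and 1.334 in Pachon, 1.014 and 0.8246 in Tinaja, and 0.8217 and 0.905 in Surface. All 45 members passed edgeR's filter on low counts, as did 15282 genes of the table. How reads of near-identical gene copies were counted is not stated, which leaves the values of such copies uncertain.

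All 4 possible orders with Surface at an end were found. Surface was lowest and Tinaja highest in 9 genes, and Surface lowest and Pachon highest in another 9. Surface was highest and Pachon lowest in 12, and Surface highest and Tinaja lowest in 15. The 45 made up 0.36% of the 12486 genes whose highest population had a mean of at least 2. The share was 0.144% for the 18 higher in the caves and 0.216% for the 27 lower. The same gaps with Surface in the middle, so that the caves lay on opposite sides of it, were met by 13 genes, or 0.104%. Only 2 orders have Surface in the middle, against 4 with Surface at an end, so the 2 shares are not alike. Among the genes ranked in a given order, 0.403% to 0.655% met the gaps with Surface at an end. With Surface in the middle, 0.33% and 0.381% did. With a gap of 3 times, 13 of the members were left, against 1 gene with Surface in the middle. With a gap of 1.5 times the numbers were 183 and 35. The rule asks both libraries of each population to agree, so it is met more often when a library is left out. It was met by 87 genes without Pachon 1, 77 without Pachon 2, 93 without Tinaja 1, 92 without Tinaja 2, 77 without Surface 1 and 79 without Surface 2. With Surface in the middle it was met by 23 genes without Pachon 1, 18 without Pachon 2 and 19 without Tinaja 1. Also with Surface in the middle, it was met by 15 without Tinaja 2, 26 without Surface 1 and 28 without Surface 2.

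**Figure D1:**
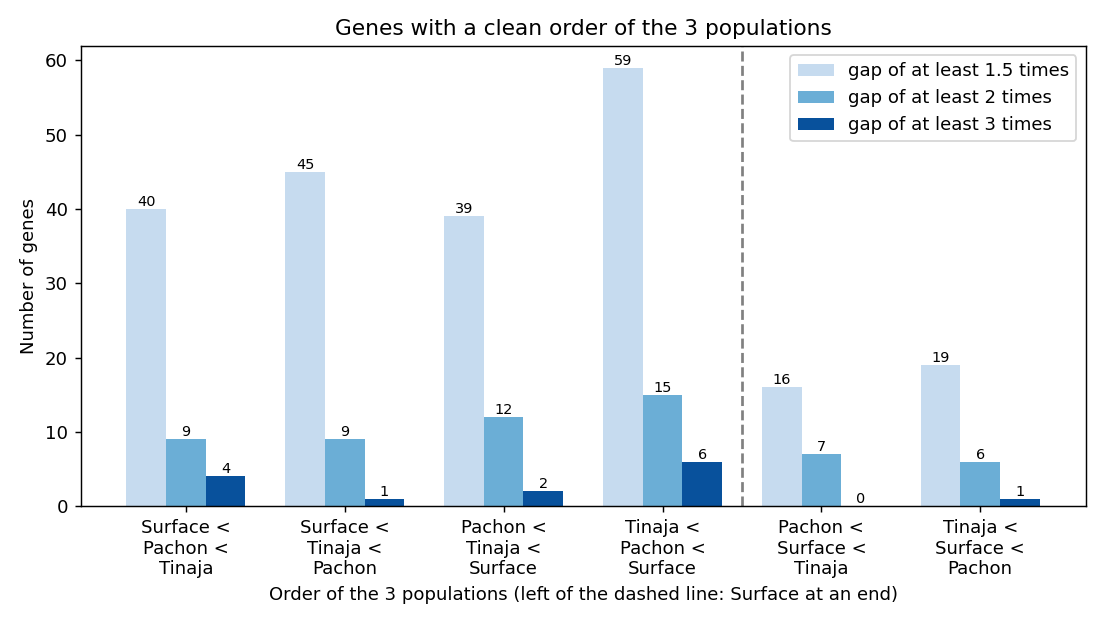
Number of genes (vertical axis) that met the gap rule for each order of the 3 populations (horizontal axis, lowest first), at gaps of at least 1.5, 2 and 3 times (light to dark bars). At 2 times, the orders with Surface at an end hold 9, 9, 12 and 15 genes, and those with Surface in the middle 7 and 6.

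Among the 9 genes ordered Surface, Pachon, Tinaja, ENSAMXG00000040481 had the widest smaller gap and the highest level. It had 8.96 and 17.3 CPM in Pachon 1 and 2, 796 and 417 in Tinaja 1 and 2, and 0.495 and 1.16 in Surface 1 and 2. Both Pachon libraries were far above both Surface libraries, and both Tinaja libraries far above Pachon. The rule allows no overlap. The means were 13.1 ± 5.9 CPM in Pachon, 607 ± 268 in Tinaja and 0.829 ± 0.473 in Surface (SD, n = 2 each). Its edgeR log2 fold change was 3.98 ± 0.58 (SE) for Pachon against Surface, 9.52 ± 0.71 for Tinaja against Surface and -5.55 ± 0.58 for Pachon against Tinaja. The Surface reads behind this gene were 12 and 26, so its lowest level was counted rather than absent.

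Other genes of this order started from almost no reads in Surface. The gene second by smaller gap had 2.04 and 2.34 CPM in Pachon, 18.9 and 22.8 in Tinaja, and 0.0824 and 0 in Surface. It had 893 reads in Tinaja and 2 in Surface, a ratio of 479 with an exact 95% counting interval of 132 to 3960. The third by smaller gap had 2.21 and 1.85 CPM in Pachon, 56.1 and 29.6 in Tinaja, and 0.0824 and 0.0895 in Surface. In both, the Pachon libraries lay close together at a low level, and the Tinaja libraries were well above them. The seventh had 387 reads in Tinaja and 0 in Surface, which put Tinaja at least 138-fold higher than a floor of 3 reads over both Surface libraries.

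At the abundant end of the same order, the sixth gene had 102 and 41.4 CPM in Pachon, 339 and 589 in Tinaja, and 17.0 in each Surface library. The Surface libraries were nearly equal, whereas Pachon 1 was more than 2 times Pachon 2. The mean of the highest population ran from 8.78 to 607 CPM over the 9 genes, with a median of 83.7.

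The 9 genes ordered Surface, Tinaja, Pachon were lower in level, with a median of 13.1 CPM in Pachon. Their first gene by smaller gap, ENSAMXG00000016490, had 8.42 and 41.1 CPM in Pachon 1 and 2, 1.75 and 2.24 in Tinaja 1 and 2, and 0 and 0.0447 in Surface 1 and 2. The groups did not overlap, which the rule requires, and Pachon 2 was several times Pachon 1. Its mean was 24.7 ± 23.1 CPM in Pachon, 1.99 ± 0.351 in Tinaja and 0.0224 ± 0.0316 in Surface (SD, n = 2 each). It had 1673 reads in Pachon and 1 read in Surface, a ratio of 1208 with an exact 95% counting interval of 217 to 47800. Its edgeR log2 fold change for Pachon against Tinaja was 3.62 ± 0.83 (SE) and was not called. Tinaja against Surface was not called either, and its fitted value of 6.25 ± 1.7 (SE) depends on the prior count, since Surface had 1 read. The second gene had 4.78 and 6.62 CPM in Pachon, 1.35 and 1.26 in Tinaja, and 0.124 and 0 in Surface, which stand for 3 reads and 0 reads.

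The fifth gene of this order was the most abundant, with 239 and 258 CPM in Pachon, 104 and 37.0 in Tinaja, and 1.57 and 1.34 in Surface. Its gap to Surface was 18.2 times and its gap between the caves 2.29 times, so Tinaja lay much nearer to Pachon than to Surface. The third gene had 149.7 and 344 CPM in Pachon, 41.2 and 53.7 in Tinaja, and 16.4 and 5.23 in Surface. Here each population's libraries differed visibly, and the 3 ranges were separate, which the rule requires. The fourth and the sixth gene had 534 and 318 reads in Pachon, against 0 in Surface for each, which is at least 129-fold and 76.6-fold higher in Pachon than the floor of 3 reads over both Surface libraries. Counting intervals and floors cover counting error only.

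Of the 12 genes ordered Pachon, Tinaja, Surface, the first by smaller gap was ENSAMXG00000009027. It had 12.0 and 11.1 CPM in Pachon 1 and 2, 73.3 and 79.2 in Tinaja 1 and 2, and 665 and 788 in Surface 1 and 2. The libraries of each population were close, and the steps were nearly equal on the log2 scale. The means were 11.5 ± 0.659 CPM in Pachon, 76.2 ± 4.15 in Tinaja and 727 ± 87.3 in Surface (SD, n = 2 each). Its edgeR log2 fold change was -5.99 ± 0.32 (SE) for Pachon against Surface, -3.24 ± 0.28 for Tinaja against Surface and -2.74 ± 0.27 for Pachon against Tinaja. The second gene had the same shape at a lower level, with 0.902 and 1.1 CPM in Pachon, 5.87 and 8.81 in Tinaja, and 51.7 and 57.7 in Surface.

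In the 2 most abundant genes of this order the large step was the one to Surface. The third by smaller gap had 47.8 and 42.2 CPM in Pachon, 118 and 121 in Tinaja, and 2689.7 and 2943 in Surface. The tenth had 5.75 and 7.86 CPM in Pachon, 34.2 and 16.5 in Tinaja, and 2502 and 1513 in Surface. In both, the caves lay within a few fold of each other and far below Surface, at gaps to Surface of 22.2 and 43.5 times and gaps between the caves of 2.45 and 2.04 times. The 12 genes had Surface means of 5.56 to 2816 CPM, with a median of 219.8.

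The 15 genes ordered Tinaja, Pachon, Surface were led by ENSAMXG00000038681, which had the widest range of all members. It had 35.8 and 28.4 CPM in Pachon 1 and 2, 0.516 and 0.875 in Tinaja 1 and 2, and 7340.3 and 3976 in Surface 1 and 2. Tinaja held only 13 and 16 reads of it, Pachon 1072 and 982, and Surface 178069 and 88886. Its mean was 32.1 ± 5.27 CPM in Pachon, 0.696 ± 0.254 in Tinaja and 5658 ± 2379 in Surface (SD, n = 2 each). The gap between Surface and Pachon was 109 times and the gap between the caves 21.0 times, both the widest of their kind among the 27 lower genes. Its edgeR log2 fold change for Pachon against Surface was -7.47 ± 0.54 (SE).

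The second gene of this order had 20.1 and 10.8 CPM in Pachon, 1.27 and 0.93 in Tinaja, and 583 and 163 in Surface. Surface 1 was several times Surface 2, and both were well above Pachon. The twelfth gene had 957 and 967 CPM in Pachon, 51.6 and 47.3 in Tinaja, and 2759 and 2174 in Surface. Its larger gap was the one between the caves, at 18.4 times, against 2.25 times between Surface and Pachon. The sixth gene had 1 read in Tinaja and 1024 in Surface, a ratio of 955 with Surface on top and an exact 95% counting interval of 171 to 37800. Over the 15 genes the Surface mean ran from 4.09 to 5658 CPM, with a median of 123.

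**Figure D2:**
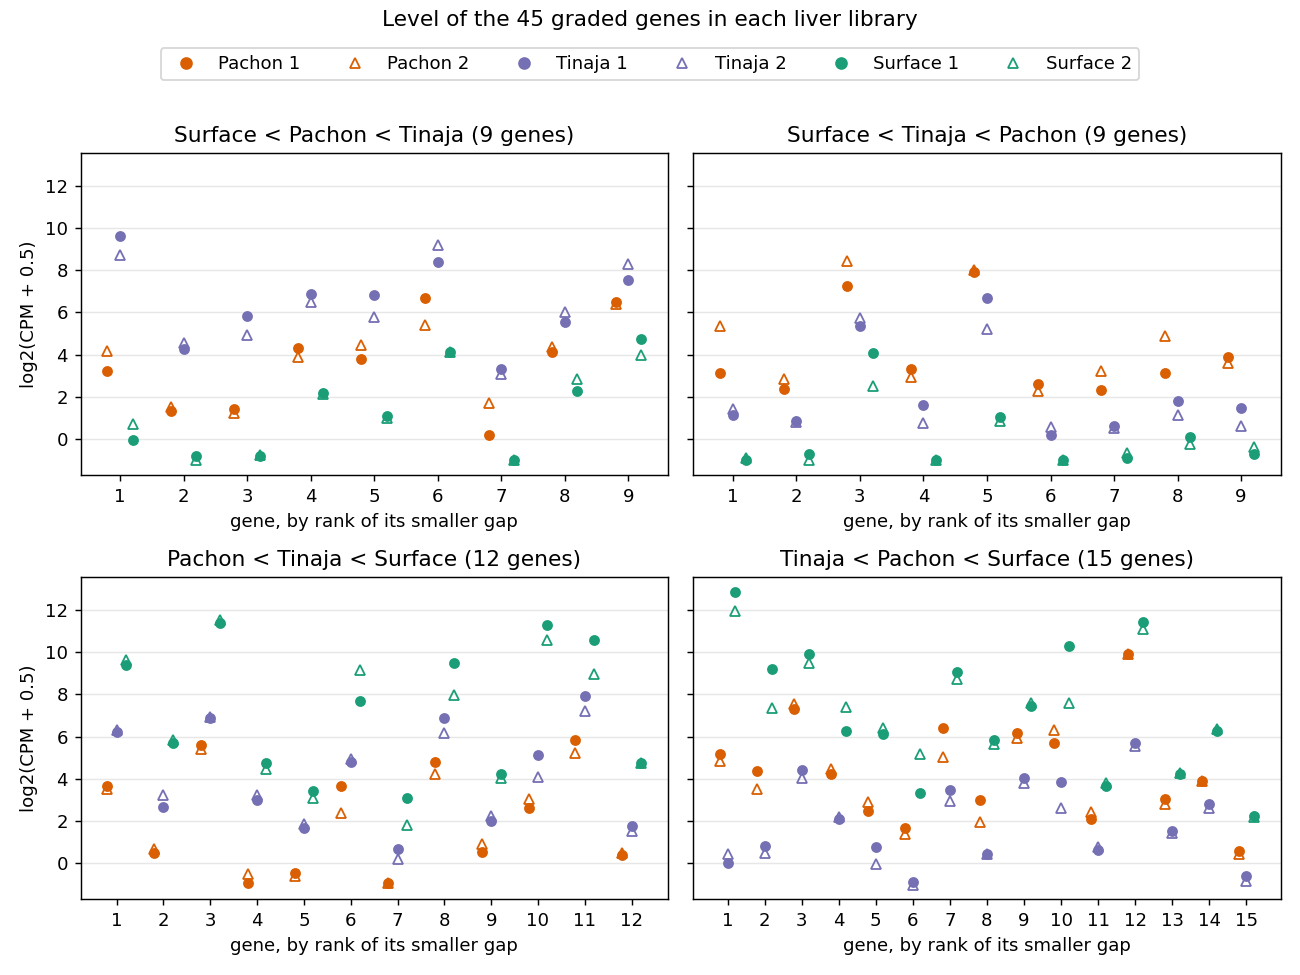
Level of each of the 45 graded genes (horizontal axis, ranked by smaller gap within its order) in each library (vertical axis, log2 of CPM + 0.5; filled circles replicate 1, open triangles replicate 2; Pachon, Tinaja and Surface from left to right within a gene). The 3 populations are separate in every gene by construction, and in 8 genes the lowest population had at most 3 reads.

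The cave in the middle lay anywhere from 24.1% to 77.5% of the way between Surface and the other cave. On the log2 scale of mean CPM + 0.5, the middle cave had covered a median of 53.3% of the distance from Surface to the outer cave, with quartiles of 41.5% and 58.4%. In 27 of the 45 genes it had covered between 40% and 60%, and 18 lay outside that range. The rule keeps the middle away from both ends, so a middle position is partly fixed by it. The larger step was the one next to Surface in 20 of the 27 lower genes and in 6 of the 18 higher genes, counts that were not tested. The added 0.5 CPM shortens most the step at the lowest population. That step is next to Surface in higher genes and between the caves in lower genes. In edgeR's fold changes the Surface step was the larger in most genes of both directions. There the higher genes did not lean to the step between the caves, as they did with 0.5 CPM added. Values from few reads depend on the prior count, however. How far the contrast between the directions depends on the added value was not tested. The lower genes had a median position of 54.8% and the higher genes of 43.5%. With a pseudocount of 0.1 the median over all 45 was 53.1%. The medians of the lower and of the higher genes were not computed with that pseudocount. Shifts of opposite sign in the lower and higher genes can cancel in the median over all 45. It therefore cannot show if the difference between the directions remains.

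**Figure D3:**
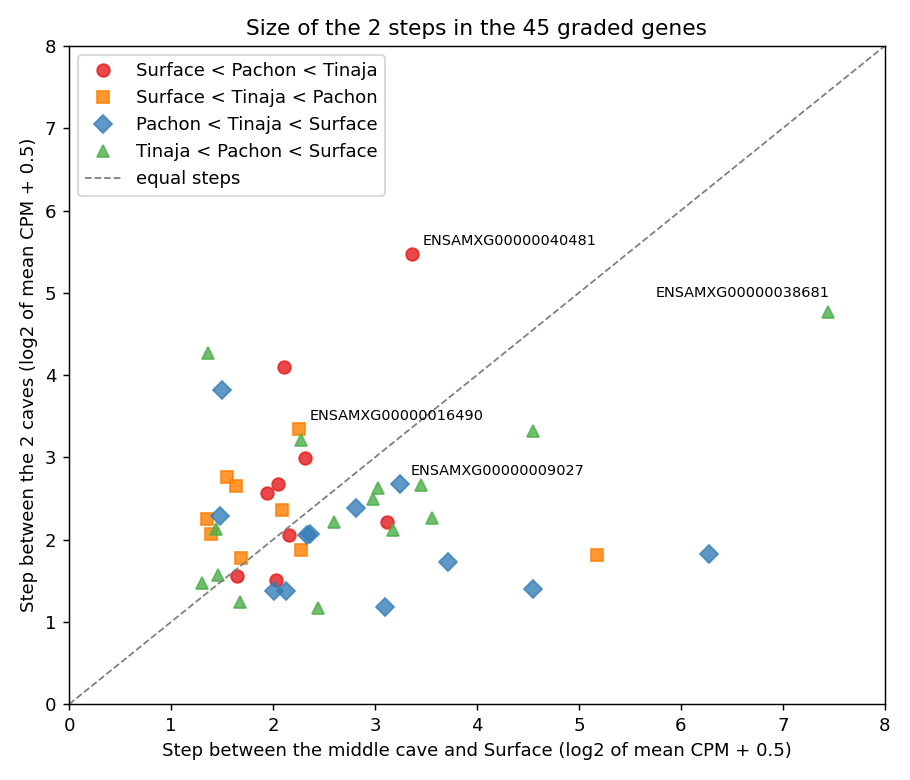
Size of the step between the middle cave and Surface (horizontal axis) and of the step between the caves (vertical axis) for the 45 genes, both as log2 of mean CPM + 0.5, with a symbol for each order and a dashed line where both steps are equal. Most lower genes lie below the line and most higher genes above it, sides that the added 0.5 CPM favours. ENSAMXG00000038681 is farthest to the right.

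The graded genes were more abundant than most genes where they were highest. The median mean of the highest population was 76.6 CPM in the 45 genes, against 9.95 CPM over the 12486 genes at the minimum mean. At least 100 CPM was reached by 20 of 45 members (44.4%) and by 8.93% of the 12486. At least 1000 CPM was reached by 5 members, all of them lower in the caves (11.1% of 45, against 1.91%). Gaps of 2 times over an added 0.5 CPM are easier to meet at a high level, so this difference is in part set by the rule and was not tested.

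Together the 27 lower genes had 1603.6 and 1550.1 summed CPM in Pachon 1 and 2, 769.9 and 600.98 in Tinaja 1 and 2, and 22361 and 14971 in Surface 1 and 2. They took 0.193% and 0.207% of the reads in Pachon, 0.078% and 0.0496% in Tinaja, and 1.84% and 1.35% in Surface. Without ENSAMXG00000038681, the other 26 took 1.23% and 0.995% in Surface, which was most of the share there. The 18 higher genes had 699.33 and 917.36 summed CPM in Pachon, 1839.8 and 1683.5 in Tinaja, and 72.879 and 53.41 in Surface. They were thus a small part of the liver RNA in every library, at most 0.186% of the reads. Sums over genes chosen for their order repeat that order.

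**Figure D4:**
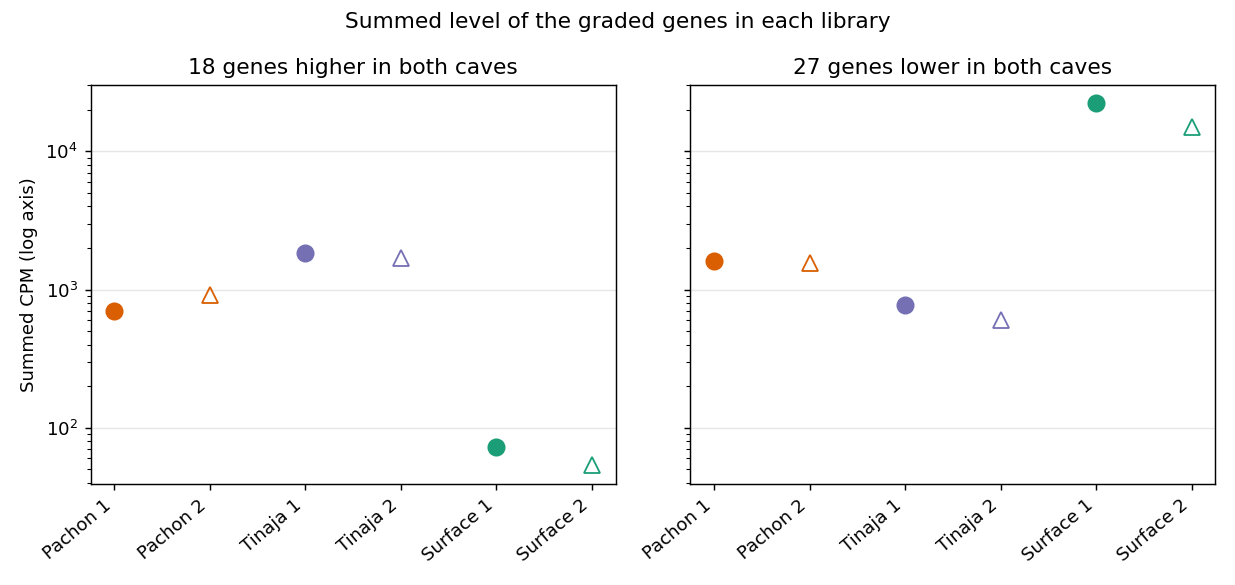
Summed CPM (vertical log axis) of the 18 genes higher and the 27 genes lower in both caves, per library (horizontal axis). Surface stands lowest on the left, at 53.41 to 72.879 CPM, and highest on the right, at 14971 to 22361 CPM.

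Libraries of the same population differed over 2-fold in some members of every population, and values near 0 are drawn together by the added 0.5 CPM. In Surface, 8 of the 27 lower genes (29.6%) differed over 2-fold between libraries, against 5.58% of all 12486 genes, with 5 higher in Surface 1 and 3 higher in Surface 2. Among the higher genes, 5 of 18 differed over 2-fold in Pachon, 4 of them higher in Pachon 2, against 3.24% of all genes there. In Tinaja 2 of 18 did so (11.1%), against 4.93% of all genes, and in Surface 1 of 18 (5.56%). Of the lower genes, 3 of 27 (11.1%) differed over 2-fold in Pachon and 2 of 27 (7.41%) in Tinaja. The median difference between libraries of the higher genes was 0.426 in Pachon, 0.569 in Tinaja and 0.193 in Surface, in log2 units, against 0.201, 0.259 and 0.259 over all 12486 genes. In the lower genes it was 0.251 in Pachon, 0.248 in Tinaja and 0.344 in Surface. The widest difference among members was 2.69 in Surface, in the tenth gene ordered Tinaja, Pachon, Surface. It had 51.0 and 79.2 CPM in Pachon, 14.0 and 5.63 in Tinaja, and 1241 and 191 in Surface.

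A pair of members kept a constant ratio in all 6 libraries. They are the eleventh and the eighth gene ordered Pachon, Tinaja, Surface, singled out after their values were seen. The eleventh had 56.4 and 36.5 CPM in Pachon, 244 and 148 in Tinaja, and 1522 and 494 in Surface. The eighth had 27.0 and 18.1 CPM in Pachon, 118 and 72.6 in Tinaja, and 713 and 249.5 in Surface. The ratio of the eleventh to the eighth was 2.09 and 2.02 in Pachon, 2.07 and 2.04 in Tinaja, and 2.14 and 1.98 in Surface. Thus the excess of Surface 1 over Surface 2 was shared by both genes. They stand in neighbouring rows, and how reads of near-identical copies were counted is not stated. Whether their counts are independent was not tested. The SD of their log2 ratio over the libraries was 0.0393, the smallest of the 990 pairs of members. The next 4 pairs, each within a single order as well, had SDs of 0.181, 0.236, 0.247 and 0.301. The rule makes the ratio change between members of different orders, so steady pairs had to come from the same order.

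Membership at the threshold was decided by small differences. Of the genes with Surface at an end, 11 had a smaller gap from 2 to 2.2, and 24 fell just short, from 1.8 to 2. The higher gene nearest inside had a smaller gap of 2.0034, with 14.4 and 11.85 CPM in Pachon, 2.30 and 1.04 in Tinaja, and 0.124 and 0.268 in Surface. The nearest outside had 1.999, with 1.04 and 2.28 CPM in Pachon, 38.4 and 32.5 in Tinaja, and 0.0412 and 0.268 in Surface. Of the lower genes, the nearest inside had 2.0022, with 0.836 and 0.925 CPM in Pachon, 2.90 and 2.35 in Tinaja, and 26.0 and 26.6 in Surface. The nearest outside had 1.9431, with 0.702 and 0.578 CPM in Pachon, 0.0397 and 0.0547 in Tinaja, and 11.1 and 2.28 in Surface. In each of these 4 genes the gap that decided lay between libraries under 3 CPM.

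Which genes met the rule also depended on the scaling. With total counts in place of TMM, 50 genes met it, 31 higher and 19 lower in the caves, so that 62% were higher against 40% with TMM. Only 26 genes were on both lists, 57.8% of the TMM list and 52% of the other. Total counts kept 4 of the 12 genes ordered Pachon, Tinaja, Surface and 10 of the 15 ordered Tinaja, Pachon, Surface. They kept 5 of the 9 ordered Surface, Pachon, Tinaja and 7 of the 9 ordered Surface, Tinaja, Pachon. Genes 3, 8, 10 and 11 ordered Pachon, Tinaja, Surface, described above, were among those lost. Under total counts the median log2 fold change over all tested genes was 0.55 for Pachon against Surface, 0.084 for Tinaja against Surface and 0.48 for Pachon against Tinaja. The direction of each member against Surface is fixed by its gaps and is no sign of stability. Leaving out a library mostly loosens the rule, so the members kept then are no support either. With a pseudocount of 1 in place of 0.5, 35 of the 45 still met the rule.

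**Figure D5:**
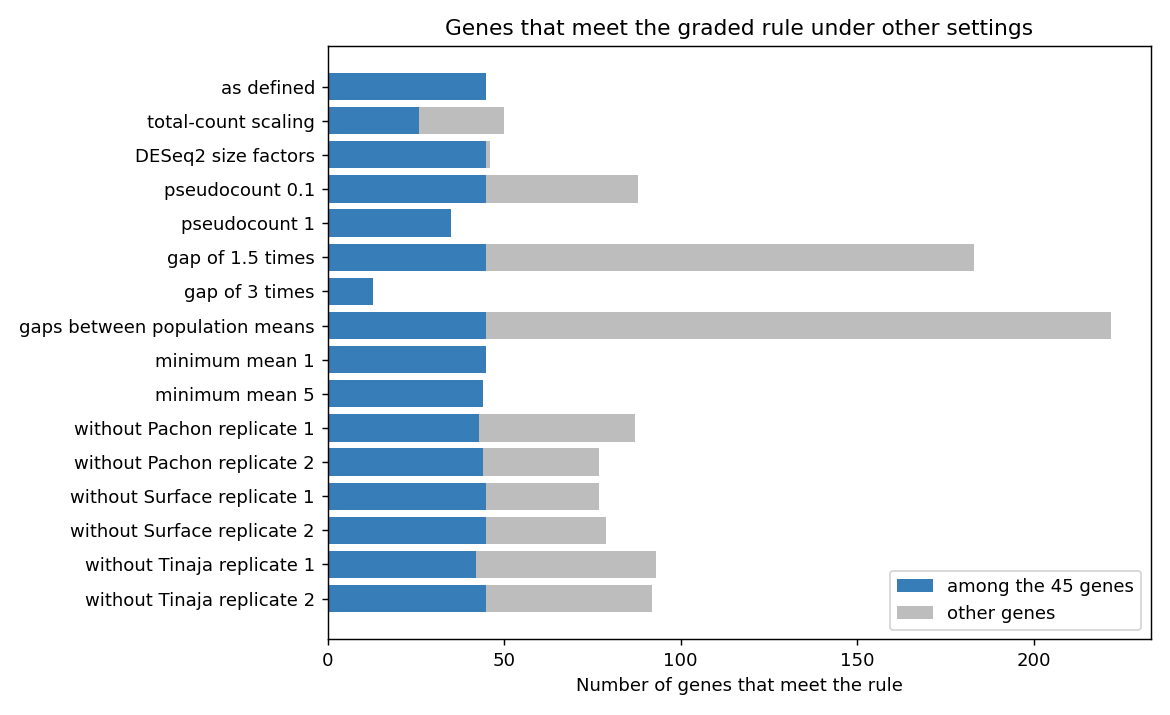
Number of genes (horizontal axis) that met the rule under each setting (vertical axis), split into those among the 45 members (blue) and other genes (grey). Total-count scaling kept 26 of the 45, while leaving out a library, which loosens the rule, kept 42 to 45 and let in others.

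edgeR's quasi-likelihood test on the whole table called 44 of the 45 members for Pachon against Surface, at an adjusted p below 0.05, where it called 16.9% of all 15282 genes. It called 42 for Tinaja against Surface, where 15.8% of all genes were called, and 37 for Pachon against Tinaja, where 9.22% were. The rule had used these contrasts, so nothing is read from the counts. Leaving out a Pachon or a Tinaja library, which leaves 1 in that population, lowered the calls for Pachon against Tinaja. This held among the members and over all genes, though not to the same extent. All 3 contrasts were called in 36 members. Fewer were called in all 3 without a Pachon library, a Tinaja library or Surface 1, but not without Surface 2. By the test alone, 120 genes (0.785%) were called in all 3 with both caves on the same side of Surface, and the 36 members were 30% of these and 80% of all members. Genes called in all 3 in this way were fewer when any library was left out, more so for a cave library than for a Surface library. The member not called for Pachon against Surface was the tenth gene ordered Tinaja, Pachon, Surface, at a log2 fold change of -3.47 ± 0.99 (SE). The 3 not called for Tinaja against Surface were genes 1, 3 and 8 of those ordered Surface, Tinaja, Pachon, in which Tinaja is the middle population. The 8 not called for Pachon against Tinaja were genes 6, 8 and 11 ordered Pachon, Tinaja, Surface, gene 10 ordered Tinaja, Pachon, Surface, gene 7 ordered Surface, Pachon, Tinaja, and genes 1, 3 and 5 ordered Surface, Tinaja, Pachon.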

How the data were processed

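The deposited table holds read counts per gene, with no normalisation by the authors visible in the values, which are whole numbers with unequal totals. Per the submitters' processing notes, bcl2fastq 2.20 and STAR were used. The file's name points to an Ensembl annotation of the second genome build. No counter or strand setting is given in the sources used here. CPM, gaps and order were computed from the counts with TMM over all table genes. R 4.3.3, edgeR 4.0.16 (robust quasi-likelihood F-test, two-sided, minimum count 10, 6 libraries, 1 term per population, Benjamini-Hochberg) and, as an alternative, DESeq2 1.42.0 were used. The scripts were tested on simulated data. Replicates of a population were compared as counts and none was a duplicate: their chi-square per degree of freedom was 167.1 to 224.4. Where libraries share a fish, tests measure only technical spread. Standard errors are the log2 fold change divided by the root of F.

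The members and lists were chosen with earlier results of these data known. Genes described in the text were, per order, the 2 with the widest smaller gap, the 2 with the highest level and the 2 with the widest range at 10 CPM or more, and those nearest the threshold. The other members with values in the text were chosen after their values were seen, for a low read count, a difference between libraries, a constant ratio or a neighbouring row. Lists of liver genes and cell type markers needed symbols and could not be applied.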

Additional observations from a re-analysis of the deposited data

How the results depend on the processing

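The number of genes that met the rule was 88 with a pseudocount of 0.1, 183 with a gap of 1.5 times, 13 with 3 times and 222 with gaps between population means, against 45. Those with Surface in the middle were 22 with a pseudocount of 0.1, 5 with 1, 35 with 1.5 times, 1 with 3 times and 61 between means, against 13. Leaving out a library gave 77 to 93 and 15 to 28 genes. Calls among the members were then 39 to 42 for Pachon against Surface, 33 to 42 for Tinaja against Surface and 19 to 40 for Pachon against Tinaja. Over all genes, a smaller share was called in each contrast whichever library was left out, compared with the full set of libraries. Whether calls among the members changed beyond this was not tested. The median position of the middle cave was 50.6% with total counts. The mean spread within populations was 0.258 with a pseudocount of 1, against 0.34 in log2 units. With the replicate block, 44 members were called for Pachon against Surface, 43 for Tinaja against Surface and 37 for Pachon against Tinaja. Of all genes, 2136, 1956 and 1043 were called in the same order. Replicate differences correlated at 0.0497 for Pachon and Surface, 0.0166 for Tinaja and Surface and -0.122 for Pachon and Tinaja, so the numbers were not taken as pairs. A block with the Tinaja numbers crossed, chosen after seeing the data, called 37 members and 1344 genes. Of 375 fits of the genes named by the rule under alternatives, for the outer cave against Surface and between the caves, 27 lost their call and 15 gained one. Most of the lost calls and all of the gained ones were for Pachon against Tinaja. For the outer cave against Surface, only ENSAMXG00000016490 lost its call. The direction was fixed by the choice of genes, which also favoured the calls, so calls that were kept are no support. The middle cave against Surface is not among these fits. Depth limits the 8 genes with at most 3 reads in their lowest population. The cause of these changes was not tested.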

Other observations

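Members of different orders could be neighbours in the deposited table, whose row order is not explained in the sources used here. ENSAMXG00000009027, highest in Surface and lowest in Pachon, was next to the ninth gene ordered Tinaja, Pachon, Surface. That neighbour had 72.0 and 61.5 CPM in Pachon, 16.2 and 13.4 in Tinaja, and 174 and 189.7 in Surface, so the caves stood the other way round. The ratio of ENSAMXG00000009027 to its neighbour was 0.167 and 0.18 in Pachon, 4.52 and 5.91 in Tinaja, and 3.81 and 4.15 in Surface. The pair with a constant ratio near 2 was also in neighbouring rows, and these were the only pairs of members next to each other. Both pairs were noticed after the values were seen.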
